A study of Mus musculus with 6 samples.

Results

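The transcripts of 10 antioxidant enzymes were followed in hind leg muscle of trained and untrained mice: Sod1, Sod2, Sod3, Cat, Gpx1, Gpx3, Gpx4, Prdx3, Txnrd1 and Nqo1. They were taken by gene symbol from a table of 16759 genes, and all 10 were found with 1 row each. The study asked how moderate-intensity exercise changes mouse muscle, and it compared a control (Con) group with an exercise (EX) group of 3 mice each, with 1 RNA library per mouse. All mice were male C57BL/6J, 8 weeks old when divided into groups, and no introduced allele or drug is named for either group. The Con mice were not trained. The EX mice ran on an electric treadmill for 60 min per session, 5 sessions a week for 6 weeks, for 22 km per mouse in all, with tissue taken 24 h after training ended. Tissue was perfused with saline and freed of intermuscular fat, and the muscles of the hind leg were not named singly, so a library can hold fibres of several muscles.

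Muscle produces superoxide and hydrogen peroxide when it respires and contracts. Superoxide dismutases turn superoxide into hydrogen peroxide, and catalase, glutathione peroxidases and peroxiredoxins then reduce the peroxide. Glutathione, thioredoxin and NADPH supply the electrons for the peroxidases, and the transcription factor NRF2, held in check by KEAP1, drives many of the genes through antioxidant response elements.

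Of the 10 enzymes, Gpx1, Gpx3, Gpx4 and Txnrd1 are selenoproteins. In these genes an in-frame TGA codon, elsewhere a stop, is read as selenocysteine, the residue that does the chemistry. The coding stretches around that codon are shown because this feature is shared by both enzymes whose transcripts changed. The capitals mark the selenocysteine codon, each stretch is written on the coding strand, and all 4 come from the GENCODE M21 annotation of the GRCm38 build.
Gpx1: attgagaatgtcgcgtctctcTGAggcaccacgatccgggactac
Gpx3: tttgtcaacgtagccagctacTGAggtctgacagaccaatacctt
Gpx4: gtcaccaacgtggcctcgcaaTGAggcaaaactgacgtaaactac
Txnrd1: gacatcctccagtctggctgcTGAggttaa
The codon lies in the coding part of exon 1 of 2 in Gpx1 (chr9:108339451-108339453), of exon 2 of 5 in Gpx3 (chr11:54907256-54907258) and of exon 3 of 7 in Gpx4 (chr10:80054737-80054739), all on the plus strand. It is codon 47 of transcript Gpx1-201, codon 73 of Gpx3-201 and codon 129 of Gpx4-201, and other transcripts of a gene can number it differently. In Txnrd1-201 it is codon 498, in exon 14 of 14 (chr10:82896037-82896039, plus strand), and the stretch ends with the stop codon just after it.

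The core of the antioxidant response element (TGACNNNGC, searched on both strands) was looked for in RefSeq promoters of 300 bases, from 250 bases before to 50 bases after the gene start (GRCm38.p6). Of the 10 genes, 9 matched, with 14 promoter entries in all. The core was in 2 of the 14 entries (14.3%), the entry of Sod1 and 1 of 3 of Txnrd1, against 12.4% of all 32851 promoters of the same length. The windows are shown with the element in capitals, as the reverse complement on the strand of the gene.
Txnrd1: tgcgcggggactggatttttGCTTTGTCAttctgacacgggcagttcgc
Sod1: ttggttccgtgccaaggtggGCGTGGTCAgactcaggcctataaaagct
The Txnrd1 window is chr10:82859094-82859142, and its element begins at position -92 from the start given for that promoter. The Sod1 window is chr16:90220686-90220734, and its element begins at position -56. A match is a description of the letters and not a binding site.

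Counts on genes totalled between 13845361 and 16240420 per library. The 20 most abundant genes took 30.1% to 32.5% of them, and a count of 0 would allow up to 0.187 to 0.214 CPM, for counting error only. Log2 levels correlated across genes at 0.99588 to 0.99702 between libraries of 1 group and at 0.99113 to 0.99225 between groups. No library stood apart, although Con replicate 1 had the lowest total. Levels are given as CPM (the count of a gene scaled to a common library size with TMM factors). Changes are log2 fold changes of EX over Con from the quasi-likelihood test of edgeR, with p-values adjusted by Benjamini-Hochberg over the 10883 genes whose mean FPKM was 1 or more. All 10 enzymes passed that filter, with 86 to 4944 counts per library and whole counts throughout. In bulk muscle, fewer cells of a type and less RNA per cell cannot be told apart.

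Per length, the enzymes spanned a wide range of levels. Gpx4, which reduces lipid peroxides in membranes, was the most abundant, at 659 to 779 TPM over the 6 libraries. Sod1, the cytosolic copper-zinc dismutase, followed at 422 to 503 TPM, and Gpx3, the secreted glutathione peroxidase, at 284 to 420 TPM. Prdx3, the mitochondrial peroxiredoxin, ranged from 256 to 268 TPM. Lower levels were found for Gpx1 (116 to 150 TPM), Sod2 (105.0 to 114 TPM) and catalase (72.7 to 86.2 TPM). Txnrd1 was at 53.9 to 61.1 TPM and Nqo1 at 33.9 to 40.4 TPM. Sod3, the extracellular dismutase, was the least abundant at 4.58 to 5.99 TPM. No neighbours in this order overlapped in range, and each enzyme was above the next in 6 of 6 libraries, so the order of levels was the same in Con and EX muscle. By mean TPM, Gpx4 stood at percentile 98.5 of the genes tested and Sod3 at percentile 25.6.

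**Figure D1:**
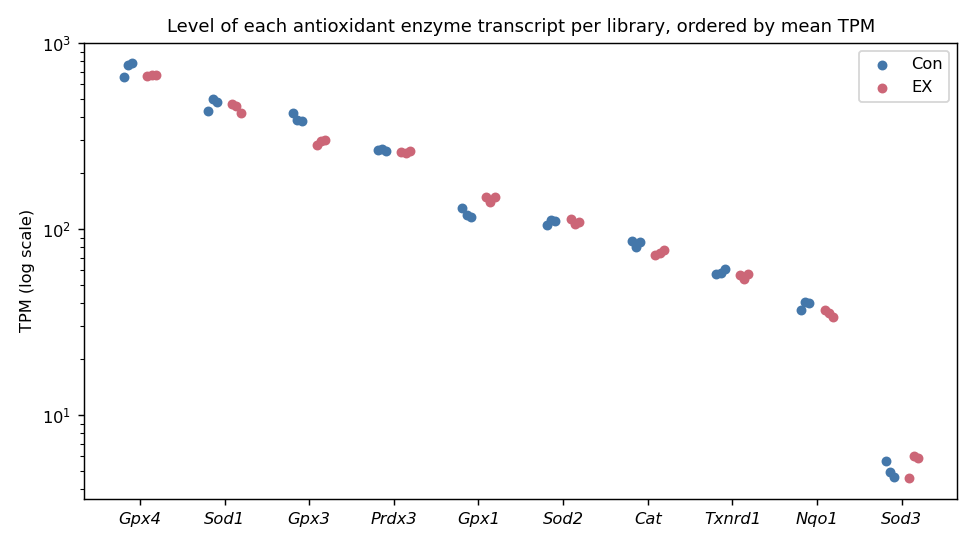
TPM of each enzyme in every library on a log scale, ordered by mean, with Con in blue and EX in red. The order runs from Gpx4 (659 to 779 TPM) to Sod3 (4.58 to 5.99 TPM), and all EX points lie above the Con points for Gpx1 and below them for Gpx3, Cat, Prdx3 and Nqo1.

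Training went with a higher Gpx1 transcript and a lower Gpx3 transcript, and no change in the other enzymes passed the test. An adjusted p under 0.05 was reached by 1 enzyme in the higher direction and 1 in the lower direction, which is 20% of the 10. Across all genes tested 17.9% passed, 9.11% higher and 8.8% lower, so the share among the enzymes lay near that of all genes. The CPM of the groups did not overlap for 4 of the 10 enzymes (Sod2, Gpx1, Gpx3 and Prdx3), against 33.7% of all genes tested. The median log2 fold change of the enzymes was 0.03, against -0.0009 over all genes, and the median size of the change was 0.06 against 0.10.

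**Figure D2:**
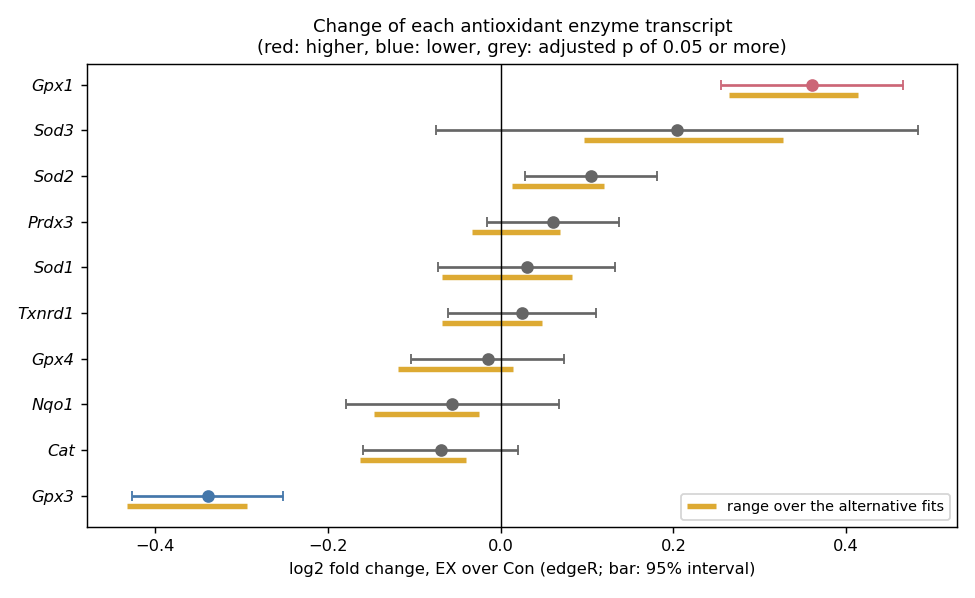
Log2 fold change of EX over Con for each enzyme from edgeR, with its 95% interval as a thin bar and the range over the alternative analyses as a thick bar. Gpx1 (0.36), Gpx3 (-0.34) and Sod2 (0.10) lie apart from 0 with both bars, and of these Gpx1 and Gpx3 had an adjusted p under 0.05.

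Among the glutathione peroxidases, Gpx1 is the form of cytosol and mitochondria and reduces hydrogen peroxide. Gpx1 (gene 14775) was at 63.9, 57.8 and 55.5 CPM in Con and at 75.6, 73.8 and 77.7 CPM in EX. Every EX library was above every Con library, and the 3 EX values were closer together than the 3 Con values. The means were 59.1 ± 4.32 (SD, n = 3) and 75.7 ± 1.93 CPM. The log2 fold change was 0.36 (standard error 0.051, 95% interval 0.26 to 0.47, edgeR adjusted p = 6.9e-06). Over 15 alternative analyses it ranged from 0.26 to 0.41, with adjusted p from 5.2e-09 to 0.0092.

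Gpx3 moved the opposite way. Its product is secreted, and it acts outside cells. Gpx3 (gene 14778) was at 342, 313 and 305 CPM in Con and at 241, 260 and 259 CPM in EX, so that every EX library lay below every Con library. The means were 320.2 ± 19.4 and 253 ± 10.6 CPM (SD, n = 3), and the log2 fold change was -0.34 (standard error 0.043, 95% interval -0.43 to -0.25, edgeR adjusted p = 1.1e-06). Alternatives ranged from -0.43 to -0.29, with adjusted p from 4.1e-10 to 0.00072. Con replicate 1 had the highest level of both transcripts within its group. Without it the changes were 0.41 for Gpx1 and -0.29 for Gpx3, and both kept their call.

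The balance of these peroxidases differed between the groups. The TPM of Gpx3 over that of Gpx1, a ratio chosen after the values were seen and given without a test, was 3.23, 3.27 and 3.30 in Con and 1.92, 2.12 and 2.01 in EX. Of the summed TPM of the 10 enzymes, Gpx3 made up 17.4% in Con and 13.95% in EX, and Gpx1 made up 5.33% and 6.93%. Gpx4 made up 32.05% and 32% of it.

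Gpx4 (gene 625249) was at 226, 255 and 256 CPM in Con and at 237, 248 and 245 CPM in EX. The EX values lay inside the Con range, whose low end was Con replicate 1. The log2 fold change was -0.02 (95% interval -0.10 to 0.07, edgeR adjusted p = 0.854), and it was above 0 when Con replicate 2, Con replicate 3 or EX replicate 1 was left out.

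The dismutases showed no change past the test. Sod2, the manganese enzyme of the mitochondrial matrix, came closest. Sod2 (gene 20656) was at 249.3, 265 and 260.2 CPM in Con and at 283, 275 and 275.1 CPM in EX. In CPM all EX libraries were above all Con libraries, with means of 258 ± 7.88 and 277 ± 4.61 CPM (SD, n = 3). The log2 fold change of 0.10 (standard error 0.037, 95% interval 0.03 to 0.18) gave an edgeR adjusted p of 0.0518, and over the alternatives the adjusted p ranged from 0.0513 to 0.859. In TPM and FPKM the Sod2 groups overlapped, and the change was 0.01 with limma on log2(TPM + 0.1).

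Sod1 (gene 20655) was at 92.4, 106.8 and 98.9 CPM in Con and at 103.8, 104.8 and 96.1 CPM in EX. The groups overlapped, and the log2 fold change was 0.03 (95% interval -0.07 to 0.13, edgeR adjusted p = 0.732). Sod3 (gene 20657) was at 6.64, 5.77 and 5.37 CPM in Con and at 5.59, 7.55 and 7.27 CPM in EX. It had the lowest counts and the widest interval of the 10, with a log2 fold change of 0.20 and a 95% interval of -0.07 to 0.48 (edgeR adjusted p = 0.331). Over 14 alternatives the change of Sod3 ranged from 0.097 on TPM to 0.33 without EX replicate 1, with adjusted p from 0.124 to 0.655. The groups overlapped because EX replicate 1 lay among the Con values.

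Catalase, the peroxisomal enzyme that splits hydrogen peroxide, was slightly lower on average. Cat (gene 12359) was at 130.3, 120.3 and 126.7 CPM in Con and at 114.8, 121.3 and 123.3 CPM in EX, with overlap. The log2 fold change was -0.07 (95% interval -0.16 to 0.02, edgeR adjusted p = 0.299). It passed the threshold only with limma on log2(TPM + 0.1), where the change was -0.16 (adjusted p 0.0357, with a range of 0.0357 to 0.637 among the alternatives).

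Prdx3 removes hydrogen peroxide in mitochondria with electrons from thioredoxin. Prdx3 (gene 11757) was at 203.4, 203.1 and 197 CPM in Con and at 207, 209.8 and 212 CPM in EX. All EX values were above the Con values in CPM, but the log2 fold change was 0.06 (95% interval -0.02 to 0.14, edgeR adjusted p = 0.288). In TPM the 3 EX values of Prdx3 lay below the 3 Con values, and the change was -0.03 with limma, where the median of all genes was -0.09. Txnrd1, cytosolic thioredoxin reductase, recharges thioredoxin with NADPH. Txnrd1 (gene 50493) was at 119.8, 120.5 and 126.4 CPM in Con and at 124.8, 121.8 and 126.6 CPM in EX, with a log2 fold change of 0.02 (95% interval -0.06 to 0.11, edgeR adjusted p = 0.735). Its groups overlapped, with 1 Con library inside the range of the EX libraries. Nqo1, a quinone reductase often read as a marker of NRF2 activity, was at 30.7, 33.5 and 32.9 CPM in Con and at 31.9, 31.8 and 29.9 CPM in EX. The log2 fold change of Nqo1 (gene 18104) was -0.06 (95% interval -0.18 to 0.07, edgeR adjusted p = 0.577), and the groups overlapped.

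**Figure D3:**
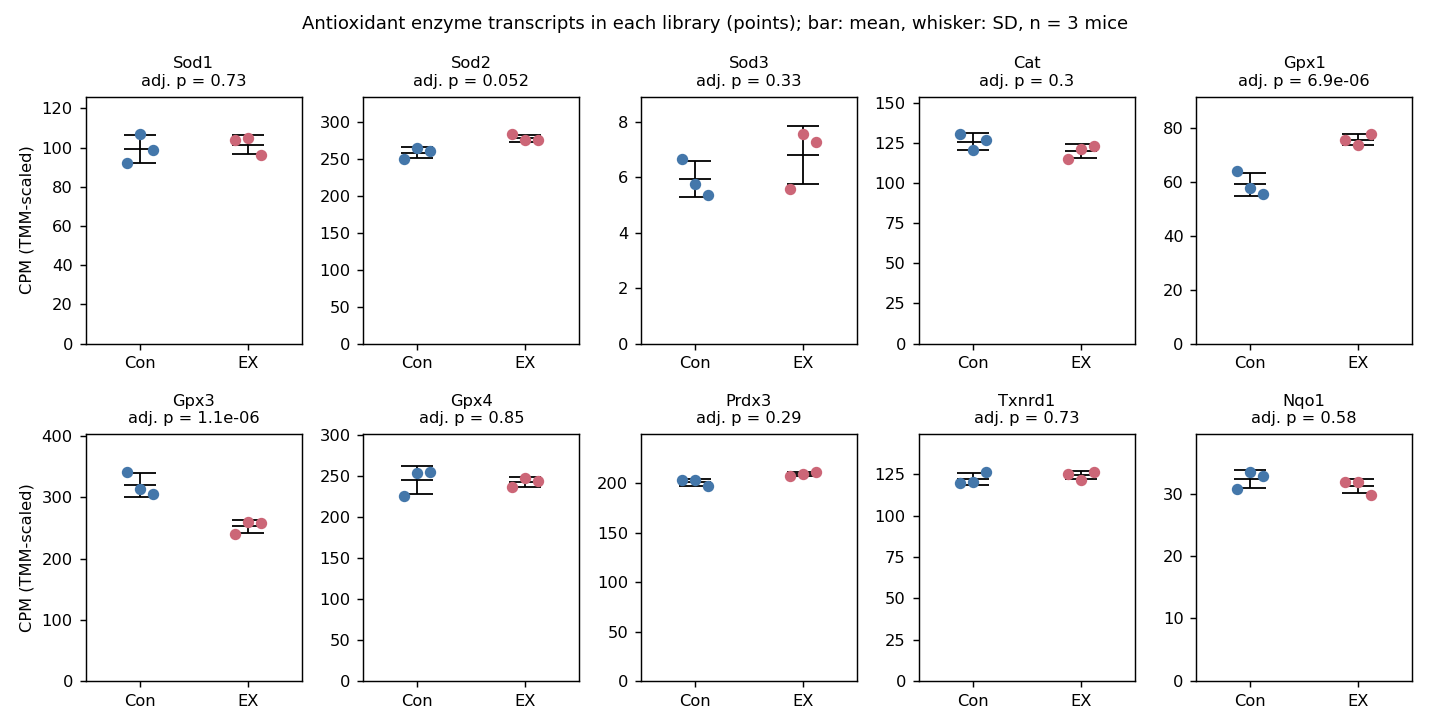
CPM of each enzyme in the 3 Con libraries (blue) and the 3 EX libraries (red), with the mean as a bar and the SD as a whisker, on axes that start at 0. Gpx1 is higher in all EX libraries, Gpx3 is lower in all of them, and Sod2 and Prdx3 are above Con in every EX library by a small margin in CPM, which turns for Prdx3 and gives way to overlap for Sod2 in TPM.

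Apart from Sod3, the 95% intervals of the 7 enzymes that did not pass the test lay between -0.18 and 0.18 on the log2 scale. The coefficient of variation between mice of a group ran from 1.04% to 15.6%, the highest in Sod3. Con replicate 1 was the lowest of the 6 libraries for 4 enzymes and the highest for 2. The summed CPM of the 10 enzymes was 1464 to 1480 in Con and 1424 to 1453 in EX. Without Gpx3 the order in CPM turned, with 1123 to 1167 in Con and 1184 to 1193 in EX. The sum without Gpx3 was chosen after the values were seen and was not tested, and in TPM its groups overlapped.

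The genes that surround these enzymes were described from 13 lists of the pathway. Counted once each, 122 of 142 listed genes were tested, and 12 were higher and 12 lower in EX, or 19.7%, against 17.9% of all genes tested. Their median log2 fold change was 0.04. Both counts depended on the method. They were 7 higher and 7 lower with DESeq2, 7 and 17 with totals that leave out the 20 most abundant genes, 2 (Pgls and Txndc17) and 16 with limma on FPKM, and 2 and 23 with limma on TPM. Besides Gpx1 and Gpx3, some genes of these lists named here kept their call in all 15 alternatives. They were Pgls and Txndc17, which were higher, and Abcc1, Aldh1l1, Gstm1, Idh2, Mgst1, Nnt and Xdh, which were lower. The other 15 genes of these lists named here that passed the threshold lost their call in at least 1 alternative.

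The NRF2 factor and its partners gave 0 higher and 1 lower gene of 9 tested, or 11.1%, against 17.9% of all genes tested. Nfe2l2, which encodes NRF2, was at 67.4 ± 1.72 CPM in Con and 68.3 ± 1.76 in EX (SD, n = 3; log2 fold change 0.02, edgeR adjusted p = 0.815). Its inhibitor Keap1 was at 99.6 and 101.0 CPM, and Bach1, a repressor at the same elements, at 53.4 and 53.9 CPM. Nfe2l1, a related factor, fell by 0.12 on the log2 scale (edgeR adjusted p = 0.030), and Sqstm1, the most abundant of the list and an adaptor that binds KEAP1, had a change of -0.07 (edgeR adjusted p = 0.151). Sqstm1 was lower past the threshold in 4 of 15 alternatives, with adjusted p from 0.0085 to 0.379 over all of them, and with totals that leave out the 20 most abundant genes 3 genes of the list were lower (Nfe2l1, Mafg and Sqstm1). Of 23 other NRF2 targets tested, 4 were higher (Prdx1, Me1, Taldo1 and Osgin1) and 2 lower (Gstm1 and Abcc1). This is 26.1%, against 17.9% of all genes tested. Both lower calls held in all 15 alternatives, while Me1 kept its call in 12, Prdx1 and Taldo1 in 9 and Osgin1 in 3. Hmox1, the inducible haem oxygenase, was at 12.2 ± 1.41 and 13.6 ± 0.503 CPM (log2 fold change 0.15, edgeR adjusted p = 0.280). The efflux pump gene Abcc1 fell from 76.5 to 62.0 CPM (-0.31, edgeR adjusted p = 3e-05), and Taldo1, of the pentose phosphate pathway, rose by 0.16. Fth1, a ferritin chain and the most abundant of these targets, had a change of -0.05 (edgeR adjusted p = 0.518).

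Of 12 tested genes of NADPH supply, 6 passed the test, or 50%, against 17.9% of all genes tested, and this difference was not tested. The 4 that fell were Aldh1l1, Idh2, Nnt and Me3. Aldh1l1, of folate metabolism, went from 26.4 ± 2.08 to 13.3 ± 0.712 CPM (log2 fold change -0.99, edgeR adjusted p = 2.1e-10). Idh2, the mitochondrial isocitrate dehydrogenase, went from 154 ± 3.76 to 101.4 ± 3.64 CPM (-0.61, edgeR adjusted p = 1.8e-11). Nnt, the mitochondrial transhydrogenase, which is defective in C57BL/6J mice, fell by 0.43 (edgeR adjusted p = 0.00013). The 2 that rose were Pgls, of the pentose phosphate pathway, by 0.41 and malic enzyme Me1 by 0.14, from 325 ± 4.22 to 359 ± 2.55 CPM (edgeR adjusted p = 0.0023 and 0.0042).

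In the glutathione list, 4 of 18 genes tested fell and none rose. The 22.2% that passed stand against 17.9% of all genes tested, and 8.8% in the lower direction. The 4 were Mgst1 (-0.41), Gstm1 (-0.21), Gstm2 (-0.19) and Mgst3 (-0.13), all glutathione transferases, and Mgst1 went from 34.8 ± 1.76 to 26.3 ± 0.232 CPM (edgeR adjusted p = 1.6e-05). Mgst1 and Gstm1 kept their call in every alternative, and Gstm2 and Mgst3 did not. Gstp1, the most abundant, had a change of 0.10 (edgeR adjusted p = 0.170) from counts that were not whole. Without Con replicate 1 the change of Gstp1 was 0.16 and passed the threshold, with adjusted p from 0.0027 to 0.985 over the alternatives.

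Of 8 other peroxiredoxin and sulfiredoxin genes tested, Prdx1, the cytosolic peroxiredoxin, rose from 229 ± 12.0 to 251 ± 5.10 CPM (log2 fold change 0.13, edgeR adjusted p = 0.019), and Sesn1, a sestrin, fell by 0.18 (edgeR adjusted p = 0.026), so that 25% passed, against 17.9% of all genes tested. Of 12 thioredoxin and glutaredoxin genes, 3 rose and 0 fell, or 25%, against 17.9% of all genes tested. Txndc17, a thioredoxin-like protein, had the largest change of these at 0.35 (edgeR adjusted p = 0.0013), with Nxn at 0.17 and Glrx5 at 0.16. Txndc17 kept its call in all 15 alternatives, while Nxn lost it in 9 and Glrx5 in 13. Txnip, which binds thioredoxin and was the most abundant of the list, was at 1324 and 1330 CPM (edgeR adjusted p = 0.921). Of the other glutathione peroxidases, Gpx7 and Gpx8 were tested, and 0 passed.

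Selenoproteins other than the 4 enzymes above gave 4 higher and 0 lower of 15 tested, or 26.7%, against 17.9% of all genes tested and 9.11% in the higher direction, with no test of the difference. They were Selenof (0.23), Selenot (0.17), the methionine sulfoxide reductase Msrb1 (0.17) and Selenow (0.10), a small and abundant muscle selenoprotein at 637 and 683 CPM. All 4 calls were lost with limma on FPKM or TPM. Selenow (edgeR adjusted p = 0.048) kept its call in 2 of 15 alternatives, Selenot in 11, and Selenof and Msrb1 in 12. None of 9 genes of selenoprotein synthesis passed, and Pstk, which prepares the selenocysteine tRNA, was at 20.3 and 20.0 CPM. With limma on FPKM or TPM, 1 synthesis gene was lower (Trnau1ap). The median log2 fold change was 0.10 over the selenoproteins and -0.02 over the synthesis genes.

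Few genes of the remaining lists passed the test. None of 4 genes of copper delivery to the dismutases passed, and the chaperone Atox1 had a change of -0.16 (edgeR adjusted p = 0.295). None of 13 peroxisome genes passed, Pex19 included at -0.01, although limma on TPM called 2 of them lower (Pex5 and Pex11a). Of 6 oxidant-producing enzymes tested, Xdh, xanthine dehydrogenase, fell from 67.4 to 56.3 CPM (-0.26, edgeR adjusted p = 0.00025), and Rac1 had a change of 0.07 (edgeR adjusted p = 0.189). Of 7 genes of methionine repair and metallothioneins, Msrb1 alone passed. The shares in these last lists were 16.7% and 14.3%, against 17.9% of all genes tested.

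**Figure D4:**
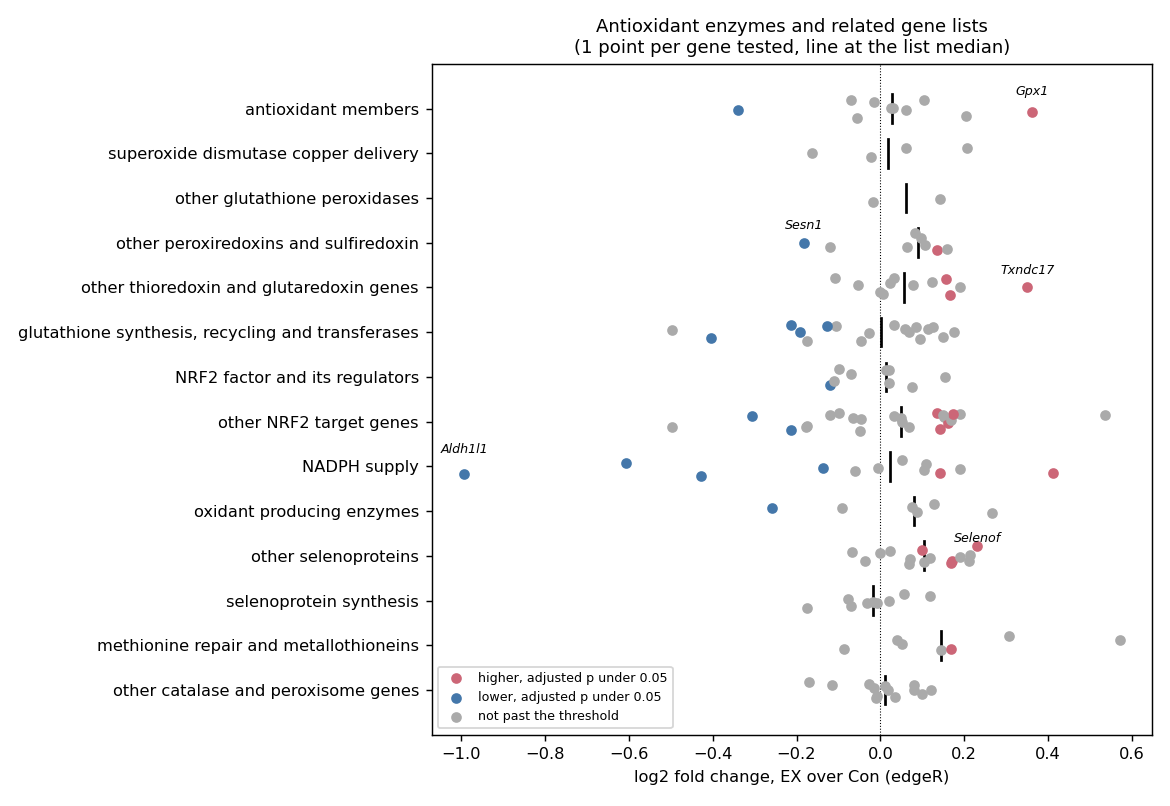
Log2 fold change of every tested gene in the enzyme set and in 13 related lists, with genes past the threshold in red (higher) or blue (lower) and the list median as a black line. NADPH supply holds 6 coloured points of 12, and the selenoproteins hold 4 red points of 15 and no blue one.

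Cell type markers moved with the groups, and their summed CPM is given because Gpx1 and Gpx3 are also expressed outside muscle fibres. Markers of skeletal muscle fibres, genes shared by all fibres and genes of fast fibres, were abundant in every library, at 160892 to 167539 CPM in Con and 175109 to 184240 in EX (5 of 8 higher), and slow fibre markers were at 45.5 to 50.8 and 229 to 258 CPM (6 of 6 higher). Macrophage markers were at 45.5 to 49.8 and 81.2 to 87.5 CPM (6 of 7 higher), adipocyte markers at 669 to 695 and 770.4 to 803 CPM (5 of 8 higher), fibroblast markers at 930 to 956 and 1258 to 1262 CPM (3 of 8 higher), and tendon markers at 176 to 192 and 251 to 268 CPM (3 of 6 higher). These sums were higher in every EX library, as was Gpx1. Lower in every EX library, as was Gpx3, were endothelial markers, at 859 to 874 and 744 to 762 CPM (5 of 8 lower), smooth muscle and pericyte markers, at 959.6 to 986 and 787 to 810.1 CPM (5 lower and 1 higher of 8), and liver markers, at 109 to 113 and 61.4 to 67.9 CPM (7 of 8 lower). Red cell markers overlapped at 241 to 265 and 263 to 290.0 CPM (1 of 5 higher), and neutrophil markers were at 0.190 to 0.498 CPM in Con and 0.063 to 0.253 CPM in EX, with Ly6g and Mpo not in the table. The part of these shifts in the changes of Gpx1 and Gpx3 was not tested.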

How the data were processed

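RNA of hind leg muscle from 3 Con and 3 EX mice was sequenced by the authors on the DNBseq platform with paired reads. The authors deposited 3 values per gene in each library, an estimated count, its FPKM and its TPM. The estimated counts are not normalized, and the deposited FPKM and TPM values are the authors' scaling of them to gene length and library size. The submitters' processing notes name cutadapt, featureCounts, MultiQC and GRCm38.p6, while the study's methods name HISAT, GRCm39 and DESeq, so the build behind the counts is not settled. Strand use is not given in the sources used here. The table gives no positions, and the coordinates printed here come from the GRCm38 references, matched by symbol. The 6 columns of group means were not used.

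Counts were rounded to whole numbers and tested with edgeR 4.0.16 in R 4.3.3 (TMM, glmQLFit, glmQLFTest) on the 10883 genes whose mean FPKM was 1 or more. Genes passed at an adjusted p-value below 0.05, whatever the fold, and intervals were 95%. CPM of the marker lists came from a fit without a filter and cover all listed genes in the table. Alternatives were median ratio size factors, totals without the 20 most abundant genes, no filter, a mean of 5 FPKM, DESeq2 1.42.0, limma 3.58.1 on log2 of FPKM plus 0.1 or 1 and of TPM plus 0.1, a replicate block, and each library left out. Log2 changes with a pseudocount understate those of low genes. The test was tested on simulated data. Libraries came from separate mice, and no batch is given in the labels.

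The enzymes and lists were chosen with earlier results of these data known. Named were the 10 enzymes, Nfe2l2, Keap1, Bach1 and Hmox1, and from each list up to 4 genes past the threshold without overlap between groups plus the most abundant gene. Me3, Mafg, Pex5, Pex11a, Trnau1ap, Gpx7, Ly6g and Mpo fall outside this rule and were named after their values were seen. So were the markers Myl3, Myh7, Col1a1, Col1a2, Col3a1, Pdgfra, Dcn, Plin4, Fabp4, Pparg and Lipe.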

Additional observations from a re-analysis of the deposited data

How the results depend on the processing

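The calls of Gpx1 and Gpx3 held in all 15 alternatives. Of the 26 enzymes and pathway genes named here that passed the test, 11 did so in every one. With totals that leave out the 20 most abundant genes, 7 pathway genes were higher and 17 lower, and 772 and 1259 of all genes. DESeq2 called 7 pathway genes higher and 7 lower, and 643 and 585 of all genes. With limma on log2(FPKM + 0.1) or log2(FPKM + 1), 2 pathway genes and 411 of all genes were higher, and 16 pathway genes were lower. With limma on log2(TPM + 0.1), 2 of the enzymes (Gpx3 and Cat) were lower, 2 pathway genes were higher and 23 lower, and 340 of all genes were higher and 1684 lower. The share of calls that were higher was 50.8% in the main analysis, 38% without the 20 genes, 28.4% and 28.5% on FPKM and 16.8% on TPM. The median of all genes moved to at most -0.09, on TPM. Leaving out 1 library gave 7 to 10 higher pathway genes, the fewest without EX replicate 2. The cause of these shifts was not tested.

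Some small changes turned sign. They did so for Nfe2l2 (-0.0041), Keap1 (-0.0034), Bach1 (-0.012) and Txnip (-0.018) without the 20 genes, and for Bach1 (-0.0021) and Txnip (-0.0079) at a mean of 5 FPKM. On log2(FPKM + 0.1) the values were -0.032 for Sod1, -0.033 for Txnrd1, -0.038 for Nfe2l2, -0.047 for Keap1, -0.045 for Bach1 and -0.050 for Txnip. On log2(FPKM + 1) they were -0.032 for Sod1 and Txnrd1, -0.037 for Nfe2l2, -0.045 for Keap1, -0.042 for Bach1 and -0.050 for Txnip. On log2(TPM + 0.1) they were -0.068 for Sod1 and Txnrd1, -0.034 for Prdx3, -0.073 for Nfe2l2, -0.082 for Keap1, -0.080 for Bach1, -0.086 for Txnip, -0.0018 for Gstp1, -0.017 for Rac1 and -0.00031 for Selenow. Among the fits without 1 library the changes ran from -0.022 to 0.082 for Sod1, -0.074 to 0.014 for Gpx4, -0.0040 to 0.038 for Nfe2l2, -0.0091 to 0.055 for Keap1, -0.041 to 0.076 for Bach1, -0.040 to 0.25 for Gpx8, -0.013 to 0.023 for Txnip, -0.099 to 0.020 for Fth1, -0.10 to 0.019 for Pstk and -0.056 to 0.042 for Pex19. Of the genes that turned, Selenow alone had passed the threshold. The cause was not tested.

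Replicate numbers gave no sign of a pairing of the mice. Across genes, the deviations of same-numbered libraries from their group means correlated at -0.0787, -0.0495 and -0.0116. For differently numbered libraries this ran from -0.0506 to 0.0935. With 3 libraries per group these values cannot settle whether mice were paired. With a replicate block, 1 enzyme was higher and 1 lower, 9 pathway genes were higher and 11 lower, and 909 and 873 of all genes. Sod3 had the lowest counts of the 10 enzymes, down to 86 in a library.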
